A study of Drosophila melanogaster with 47 samples.

Results

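The genes described are the stress-inducible Hsp70 copies of Drosophila melanogaster and chaperones that work with them or beside them: Hsp70Aa, Hsp70Ab, Hsp70Ba, Hsp70Bb, Hsp70Bbb, Hsp70Bc, Hsp68, Hsp83, DnaJ-1 and stv. They were chosen by gene symbol and are 10 of the 11964 genes listed in at least 1 of the 3 count tables used. The progenitor and Actin tables list 10 of them, and the whole gut table lists 9, without Hsp70Bbb.

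Heat shock proteins are chaperones that bind unfolded proteins and help them to refold. In flies the inducible Hsp70 genes are nearly silent in unstressed cells and are switched on by the heat shock factor Hsf after heat or other protein-damaging stress, while related Hsp70 cognates are made at all times. Hsp70 works in a cycle of ATP binding and release in which J-domain proteins such as DnaJ-1 stimulate ATP cleavage and BAG-domain proteins such as Starvin, the product of stv, help the spent nucleotide to leave.

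The study asked how mating changes the female midgut and whether the ecdysone receptor gene EcR takes part. Mated females had 48 h with males in equal number, and age- and genotype-matched unmated females never met males after eclosion. Each of the 8 groups had 4 libraries. Mated and unmated whole guts, and mated and unmated esg+ progenitor cells sorted by FACS, came from esg-Gal4 flies. This driver acts in the intestinal progenitors, which are the stem cells and their undifferentiated daughters. Mated and unmated Actin control guts came from Actin-Gal4 flies, and the libraries labelled EcR RNAi came from Actin-Gal4/ EcR RNAi flies, in which a ubiquitous driver expresses RNAi against EcR. All 4 Actin groups were held as virgins for 5 days at 29 °C before mating at 25 °C. The labels give no rearing temperature for the esg-Gal4 flies. A whole gut library pooled 15 guts and a sorted library pooled cells of 100 to 150 guts, so the p-values measure the spread between pools.

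Gene counts per library were 13712654 to 24527185 in whole guts, 31333743 to 44215773 in progenitors and 19371149 to 29800901 in the Actin groups. Summed progenitor markers were at 3741 to 5115 CPM (counts per 1000000 counts) in mated and 3959 to 4684 CPM in unmated sorted cells, against 85.2 to 171 CPM in esg-Gal4 whole guts. EcR was at 7.17 to 9.47 CPM in Actin controls and 8.22 to 14.7 CPM in the libraries labelled EcR RNAi, so the RNAi target was not lower there. Within most groups the chaperone genes were high or low together in single libraries. Mated whole gut library 3 and unmated whole gut library 1 were each the highest of their group for 8 of 9 genes, the exception being stv. Unmated progenitor library 1 was the highest of its group for 9 of 10 genes and library 3 the lowest for 10 of 10.

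The 6 Hsp70 copies are single-exon genes on chromosome arm 3R (BDGP6.54 annotation, coordinates counted from 1). Hsp70Aa (FBgn0013275; 11954163 to 11956544, minus strand) and Hsp70Ab (FBgn0013276; 11958535 to 11960909, plus strand) point away from each other across 1990 bases. A second group lies 504543 bases further on. It holds Hsp70Ba (FBgn0013277; 12465453 to 12467776, minus strand), Hsp70Bbb (FBgn0051354; 12502510 to 12504856, plus strand), Hsp70Bb (FBgn0013278; 12505793 to 12508139, plus strand) and Hsp70Bc (FBgn0013279; 12509076 to 12511461, plus strand). Gaps of only 936 bases separate Hsp70Bbb from Hsp70Bb and Hsp70Bb from Hsp70Bc. The copies are near-identical, and how reads that match several of them were counted is not given in the sources used here. The split among copies is therefore uncertain. Their sum does not depend on that split, but it would be too low if such reads were not counted.

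The other 4 genes lie apart. Hsp68 (FBgn0001230; 3R, 24055080 to 24057310, minus strand) is a further stress-inducible member of the Hsp70 family. Hsp83 (FBgn0001233; 3L, 3192969 to 3197059, plus strand) encodes the fly Hsp90, which is made without stress and helps client proteins such as kinases and steroid receptors to mature. DnaJ-1 (FBgn0263106; 3L, 5750029 to 5752189, minus strand) and stv (FBgn0086708; 3L, 13477541 to 13483515, plus strand) encode the cochaperones named above. Hsp70Ab, Hsp68 and Hsp83 share between 13 and 27 bases with a gene on the opposite strand. The strand setting of the counting is not given in the sources used here.

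Levels of these genes differed most between sorted cells and whole guts, as the plot of CPM in each library shows. Library sizes behind the CPM were adjusted by trimmed mean of M values (TMM) scaling within each table. Together the 10 genes took 1.30% to 4.22% of a scaled unmated progenitor library and 0.413% to 0.678% of a mated one. In esg-Gal4 whole guts they took 0.0636% to 0.128% when unmated and 0.0264% to 0.0893% when mated. In the 16 Actin libraries the range was 0.0510% to 0.139%.

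**Figure D1:**
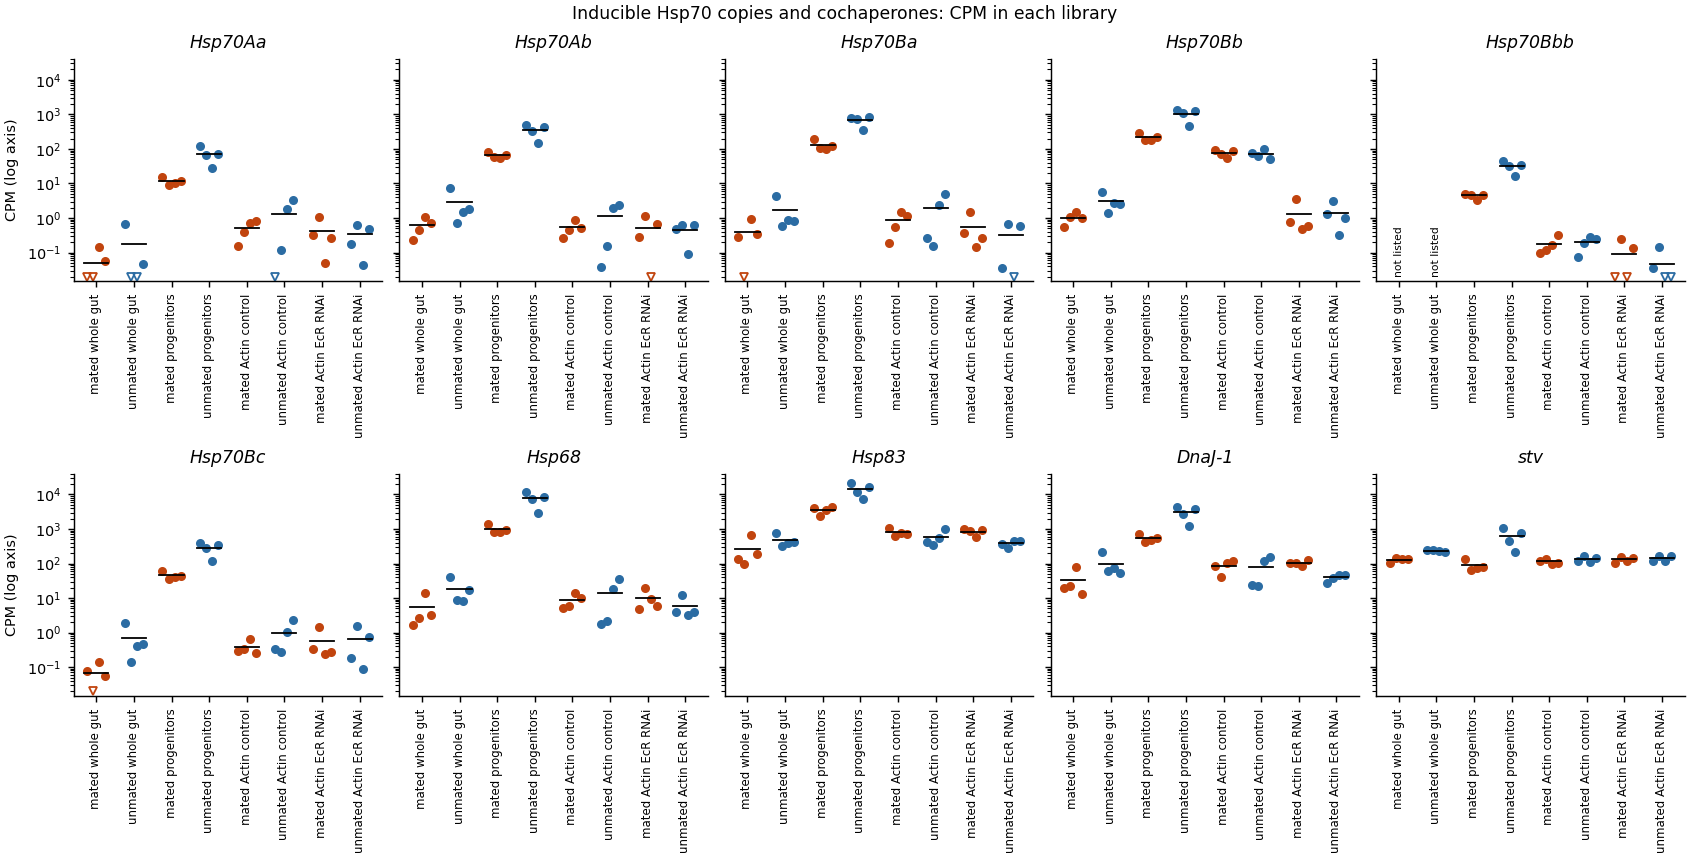
CPM on a log axis for each of the 10 genes in the 8 groups, with 1 point per library (mated orange, unmated blue), a line at the group mean, and an open triangle for a library with 0 counts. Unmated progenitors had the highest mean for all 10 genes, and Hsp70Bb alone among the copies stood near 75 CPM in the Actin controls, at means of 77.2 CPM mated and 73.2 CPM unmated.

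Compared per kilobase of exon within unmated progenitors, Hsp83 was the most abundant at 4818 ± 2041 CPM per kb and Hsp68 followed at 3441 ± 1656 CPM per kb (SD, n = 4). DnaJ-1 stood at 1422 ± 650 CPM per kb and Hsp70Bb, the leading copy, at 437 ± 170.3 CPM per kb. The other copies ranged from 13.8 ± 5.14 CPM per kb for Hsp70Bbb to 291 ± 91.7 CPM per kb for Hsp70Ba, with stv between them at 171 ± 105 CPM per kb. In unmated whole guts the order was different. Hsp83 led there at 160 ± 65.4 CPM per kb, followed by stv at 64.5 ± 4.10 CPM per kb and DnaJ-1 at 46.0 ± 35.1 CPM per kb. Hsp68 was at 8.44 ± 7.02 CPM per kb, and no Hsp70 copy listed passed 1.32 ± 0.789 CPM per kb, the level of Hsp70Bb. Reads that match several copies may not have been counted, so the Hsp70 copies could stand too low in both orders.

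For the summed Hsp70 copies the order of group means was unmated progenitors at 2439 CPM, mated progenitors at 472 CPM, mated Actin control at 79.6 CPM and unmated Actin control at 78.7 CPM. Below them came unmated whole gut at 8.56 CPM, the mated and unmated libraries labelled EcR RNAi at 3.52 and 3.23 CPM, and mated whole gut at 2.14 CPM. The 3 steps between progenitor states, from progenitors to Actin controls, and from Actin controls to unmated whole gut separated groups whose libraries did not overlap. All other neighbours in that order overlapped. The place of the Actin controls rested on Hsp70Bb. Without it, a choice made after the counts were seen, the other copies averaged 5.52 CPM in unmated Actin controls and 5.46 CPM in unmated whole guts. They averaged 2.47 CPM in mated Actin controls, and neighbours among these groups overlapped. Tables were normalized separately, so these levels are a description and were not tested across tables.

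The ratio of mean levels between progenitors and esg-Gal4 whole guts differed between genes. Hsp68 was 182 times as high in mated and 408 times as high in unmated progenitors as in whole guts of the same state. The summed Hsp70 copies were 221 and 285 times as high. Hsp83 was 13.2 and 30.1 times as high and DnaJ-1 15.7 and 30.9 times as high, so the ratios of these broadly made chaperones were smaller. Single whole gut libraries weighed heavily in these values. Without mated whole gut library 3 the mated ratios were 394 for Hsp68, 292 for the summed copies, 25.3 for Hsp83 and 28.8 for DnaJ-1. Without unmated whole gut library 1 the unmated ratios were 683, 518, 37.6 and 49.7 in the same order. For stv the ratio was 0.676 in mated and 2.65 in unmated flies. Only the progenitor libraries had passed through sorting, so handling and cell type cannot be told apart in these ratios.

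In sorted progenitors, all 10 genes were lower in mated than in unmated libraries. All of these libraries had passed through sorting, and the part of handling in this difference was not tested. The summed Hsp70 copies stood at 2439 ± 923 CPM without mating and at 472 ± 121 CPM after it (SD, n = 4), and Hsp68, Hsp83, DnaJ-1 and stv had log2 fold changes (log2 changes below) of -2.96 to -1.999. All 10 were called by edgeR's quasi-likelihood test at an adjusted p under 0.05. Of the 9025 genes tested there, 21.1% were called lower and 19.1% higher. The median log2 change of the 10 genes was -2.58, against 0.0194 over all genes tested.

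Hsp70Bb, the most abundant copy, was at 294, 179.9, 178 and 214 CPM in the 4 mated libraries and at 1349, 1088, 447.5 and 1216 CPM in the 4 unmated ones. Unmated library 3 was the lowest of its group and still above every mated library. The log2 change was -2.24 (SE 0.33, adjusted p = 0.00345). Hsp70Ba had 189, 108, 97.7 and 120.04 CPM when mated and 764, 733, 364 and 843 CPM when unmated, again with no overlap. Its log2 change was -2.39 (SE 0.30, adjusted p = 0.00259).

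The less abundant copies moved alike. Hsp70Ab was at 54.1 to 81.7 CPM when mated and 145 to 506 CPM when unmated, and Hsp70Bc at 35.1 to 61.6 CPM against 116 to 399 CPM. Hsp70Aa was at 9.26 to 15.6 CPM against 28.0 to 125 CPM. Hsp70Bbb, the scarcest, had 5.09, 4.75, 3.43 and 4.76 CPM when mated and 45.7, 32.5, 16.5 and 34.9 CPM when unmated. None of these 4 copies overlapped between states, but the share of all genes without overlap was not counted. Their log2 changes lay between -2.84 and -2.43, with adjusted p-values of 0.00184 to 0.00382. For the 6 copies summed the log2 change was -2.37 (SE 0.32, adjusted p = 0.00293).

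Hsp68 was at 1367, 821, 812 and 956 CPM in mated and at 11843, 7387, 2911 and 8564 CPM in unmated progenitors. The mated libraries lay close together, while the unmated ones spread widely, with library 3 lowest. Hsp68 had the largest fall of the 10 genes, with a log2 change of -2.96 (SE 0.40, adjusted p = 0.00286). Hsp83 was at 3936, 2439, 3571 and 4322 CPM when mated and at 21677, 11866, 7500 and 15998 CPM when unmated. It had the smallest fall, with a log2 change of -1.999 (SE 0.32, adjusted p = 0.00409).

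Among the cochaperones, DnaJ-1 was at 694, 413, 482 and 544 CPM in mated progenitors and at 4395, 2792, 1222 and 3884 CPM in unmated ones. Its log2 change was -2.53 (SE 0.37, adjusted p = 0.00344). The BAG-domain gene stv was at 133, 66.1, 76.3 and 78.6 CPM when mated and at 1104, 441, 216 and 751 CPM when unmated. Both genes were again highest in unmated library 1 and lowest in unmated library 3, without overlap between states. For stv the log2 change was -2.83 (SE 0.48, adjusted p = 0.00487).

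**Figure D2:**
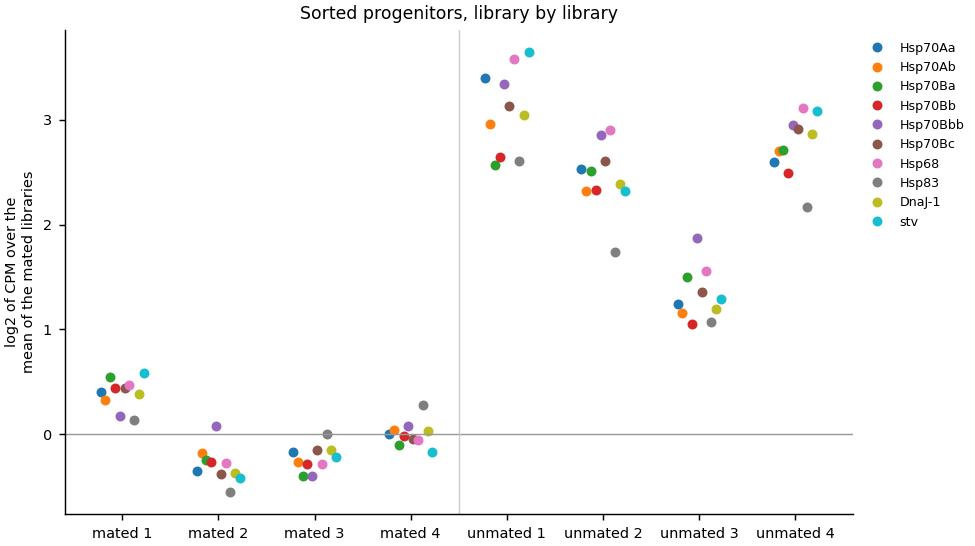
Each point is 1 gene in 1 progenitor library, as log2 of its CPM over the mean of the 4 mated libraries. The genes moved together within a library: unmated library 1 was highest for 9 of 10 genes and unmated library 3 lowest of the unmated group for 10 of 10. No unmated point lay below a mated one of the same gene. The share of all genes without overlap was not counted.

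Without unmated libraries 1 and 4 together, 10 of 10 genes were still called lower, with log2 changes of -2.45 for Hsp70Bbb to -1.45 for Hsp83. The summed copies then had a log2 change of -1.96 (SE 0.33, adjusted p = 0.013). Leaving out each library in turn also kept 10 calls. The share of all genes called in these refits is not given.

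Some markers of other cells also differed with mating in the sorted libraries, where 21.1% of all genes were called lower and 19.1% higher. Of 10 enteroendocrine markers, 5 were called lower in mated cells, and their summed level was 143 to 457 CPM mated against 316 to 547 CPM unmated. Of 9 enterocyte markers, 1 was called higher and 2 lower, with sums of 1752 to 2690 CPM and 2048 to 3537 CPM. Of 10 ovary and egg markers, 7 were listed and both tested were lower, with sums of 1.83 to 8.20 CPM and 4.71 to 13.97 CPM; Cp19 was at 0 in all mated and Vm26Ab in all unmated libraries. Of 9 progenitor markers, 2 were higher and 3 lower. Among the higher was esg, whose driver marks the sorted cells, at 894 ± 145 CPM mated and 520 ± 106 CPM unmated (log2 change 0.78, SE 0.16, adjusted p = 0.00795). Among the lower was E(spl)mbeta-HLH (log2 change -1.57, SE 0.28, adjusted p = 0.00543). None of 11 visceral muscle markers was called (851 to 910 CPM against 806 to 889 CPM). No haemocyte marker of the 3 tested was called (164 to 196 CPM against 183 to 285 CPM). The part of these differences in the chaperone result was not tested.

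**Figure D3:**
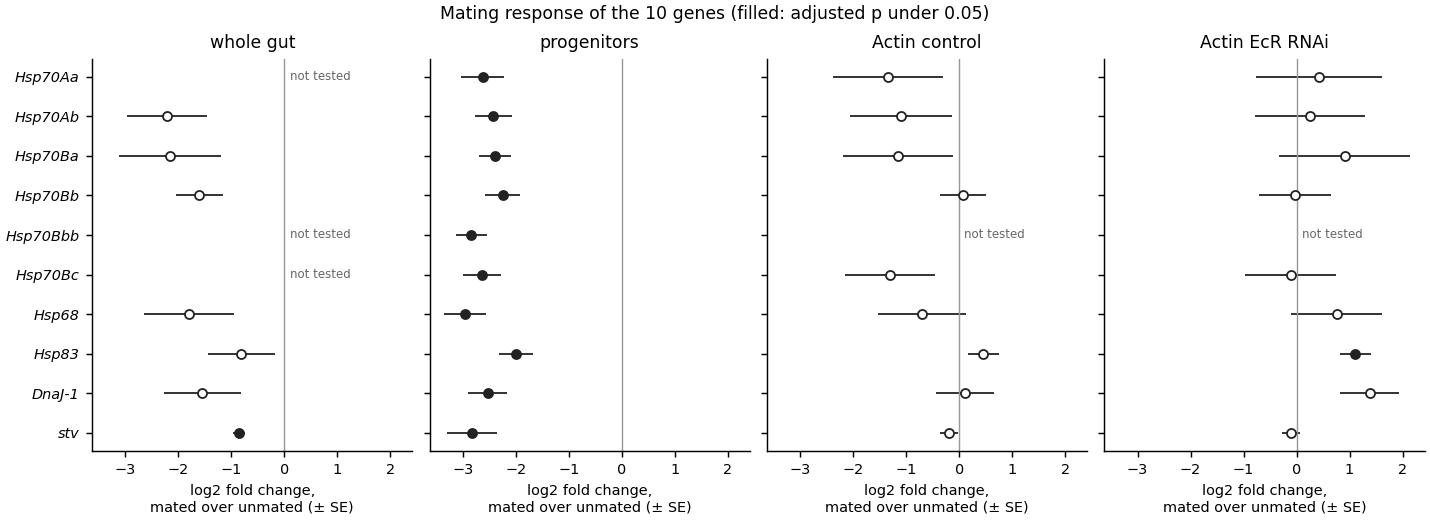
Log2 fold change of mated over unmated libraries (points, bars of 1 SE) for each gene in the 4 kinds of material, filled where the adjusted p was under 0.05. All 10 genes were called lower in progenitors, stv alone was called lower in whole guts by edgeR, no gene was called in Actin controls, and Hsp83 alone was called higher in the libraries labelled EcR RNAi.

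In esg-Gal4 whole guts stv was the only 1 of the 7 genes tested that edgeR called lower with mating. DESeq2 called stv, Hsp70Ab and Hsp70Bb lower. In the 4 libraries of each state stv was at 105, 145, 139.7 and 133 CPM in mated and at 246, 251, 232 and 218 CPM in unmated guts. Every unmated library was above every mated one, with a log2 change of -0.86 (SE 0.12, adjusted p = 0.00348), and the call held without any 1 library (highest adjusted p = 0.019). Over all 8833 genes tested, edgeR called 2.03% lower and 2.23% higher, and no such share is given for DESeq2. In bulk libraries fewer cells of a type and less RNA per cell cannot be told apart. Visceral muscle markers, for example, summed to 1518 to 1935 CPM in mated and 2674 to 2860 CPM in unmated whole guts, with 7 of 11 called lower, and 4 of 9 enterocyte markers were called lower (36408 to 39891 CPM against 74205 to 100400.0 CPM). Their part in the stv result was not tested.

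The remaining 6 tested genes had negative log2 changes that did not pass edgeR's test, and the median of all 7 was -1.60, against 0.0214 over all genes tested. Hsp70Bb was at 0.547, 1.07, 1.44 and 1.01 CPM in mated and at 5.72, 1.38, 2.76 and 2.54 CPM in unmated guts. Mated library 3 reached above unmated library 2, so the groups overlapped, and the log2 change was -1.60 (SE 0.44, adjusted p = 0.0836). Without unmated library 2 the adjusted p was 0.0401, and by DESeq2 it was 0.0118 (log2 change -1.63). The summed copies had a log2 change of -2.004 (SE 0.66, adjusted p = 0.174), and one of -1.16 (SE 0.41, adjusted p = 0.22) without unmated library 1. DESeq2 called the sum lower, with a log2 change of -2.03 (adjusted p = 0.00684).

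The other whole gut values turned on the same few libraries. Hsp68 was at 1.64, 2.59, 14.2 and 3.31 CPM in mated and at 41.6, 8.70, 8.41 and 16.6 CPM in unmated guts (log2 change -1.80, SE 0.85, adjusted p = 0.351). Hsp83 was at 137, 99.99, 655 and 187 CPM in mated and at 755, 314, 393 and 430.2 CPM in unmated guts. Mated library 3 was the only mated library to reach the unmated range. Across all libraries the log2 change of Hsp83 was -0.81 (SE 0.63, adjusted p = 0.595), and without mated library 3 it was -1.75 (SE 0.35, adjusted p = 0.0329). DnaJ-1 showed the same library pattern, at 19.7, 22.9, 80.3 and 13.004 CPM in mated and 213, 59.2, 73.6 and 52.5 CPM in unmated guts (log2 change -1.55, SE 0.72, adjusted p = 0.351).

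Of the other copies, Hsp70Ab was at 0.234, 0.457, 1.06 and 0.729 CPM in mated and at 7.41, 0.725, 1.47 and 1.88 CPM in unmated guts (log2 change -2.21, SE 0.75, adjusted p = 0.173). By DESeq2 its log2 change was -2.24 (adjusted p = 0.0248). Hsp70Ba was at 0 to 0.914 CPM and 0.580 to 4.48 CPM (log2 change -2.15, SE 0.96, adjusted p = 0.312). Both overlapped between states and were highest in unmated library 1. Hsp70Aa and Hsp70Bc had too few counts in whole guts to be tested. Hsp70Aa had 0 counts in mated libraries 1 and 2, which allows up to 0.117 and 0.114 CPM there (3 counts, counting error only), and in unmated libraries 2 and 3, which allows up to 0.217 and 0.176 CPM. Its highest level was 0.660 CPM, in unmated library 1. Hsp70Bc was at 0 to 0.144 CPM in mated and 0.145 to 1.83 CPM in unmated guts.

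The mating responses of progenitors and whole guts were compared by a test of their difference, in which 21.3% of 9448 genes were called in either direction. Of the chaperone genes, 9 entered this test, but Hsp70Aa and Hsp70Bc did so through their progenitor counts, and their whole gut counts were too low to inform it. Of the other 7, only stv was called, with a response lower by 1.93 on the log2 scale in progenitors (log2 difference -1.93, SE 0.51, adjusted p = 0.0168). Leaving out each library in turn kept that call. For the summed Hsp70 copies the difference was -0.31 (SE 0.73, adjusted p = 0.78), and it lay between -1.16 and 0.11 with 1 library left out. Hsp83 and Hsp68 differed by -1.15 (SE 0.71) and -1.11 (SE 0.90), with adjusted p-values of 0.254 and 0.382. Calls in progenitors alone do not show that the responses differed, and a p that misses the threshold does not show that they were alike.

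In Actin control guts none of the 9 genes tested was called with mating by edgeR, by DESeq2 or at an unadjusted p under 0.05. Over all 9036 genes tested, 2.95% were called higher and 3.92% lower. Hsp83 was at 1082, 611, 772 and 703 CPM when mated and at 419, 346, 563 and 988 CPM when unmated, with unmated library 4 inside the mated range (log2 change 0.45, SE 0.29, adjusted p = 0.369). DnaJ-1 was at 82.6, 40.2, 104 and 121 CPM against 23.3, 22.985, 119.6 and 156 CPM. In the unmated group, libraries 1 and 2 were low and libraries 3 and 4 high, for DnaJ-1 as for Hsp68. Hsp68 stood at 5.33, 5.75, 14.1 and 9.86 CPM in mated and at 1.82, 2.14, 17.9 and 35.4 CPM in unmated controls (log2 change -0.70, SE 0.83, adjusted p = 0.65).

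The Hsp70 copies other than Hsp70Bb were scarce in all 16 Actin libraries. Hsp70Bbb was at 0 to 0.315 CPM and too low to be tested, and Hsp70Aa, Hsp70Ab, Hsp70Ba and Hsp70Bc stayed between 0 and 4.81 CPM. With mating, the log2 changes of these 4 copies in Actin controls lay between -1.34 and -1.10, with adjusted p-values of 0.38 to 0.53. Hsp70Bb was at 55.3 to 90.7 CPM in mated and 51.5 to 103 CPM in unmated controls (log2 change 0.08, SE 0.44, adjusted p = 0.943). The median log2 change over the 9 genes was -0.70, against 0.00876 over all genes tested.

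The cochaperone gene stv was not called in Actin controls, at 96.2 to 138 CPM in mated and 107 to 159.8 CPM in unmated controls (log2 change -0.19, SE 0.17, adjusted p = 0.515). The difference of the Actin control response from the esg-Gal4 whole gut response was 0.66 for stv (SE 0.20, adjusted p = 0.0515) and 1.68 for Hsp70Bb (SE 0.52, adjusted p = 0.0621). Among all 9209 genes of that test edgeR called 8.12%, and no such share is given for DESeq2. Hsp70Aa and Hsp70Bc had too few whole gut counts to inform this test as well. By edgeR 0 of 9 chaperone genes were called, with 2 at an unadjusted p under 0.05, while DESeq2 called 2. Whole gut libraries enter both tests of differences, so these share samples. Actin control and esg-Gal4 whole guts differed together in driver and count table, and only the Actin flies had the stated 5 days at 29 °C. The parts of these in the difference cannot be told apart. Leaving out mated whole gut library 3 gave 3 calls (Hsp83, Hsp70Bb and stv), and leaving out unmated whole gut library 2, mated control library 3 or unmated control library 2 or 3 gave 1 call each.

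In the libraries labelled EcR RNAi, Hsp83 rose with mating. It was at 969, 852, 585 and 929.7 CPM when mated and at 356, 291, 455 and 444 CPM when unmated, so the groups did not overlap. The log2 change was 1.11 (SE 0.29, adjusted p = 0.0266), and it was the only call among 9 genes tested, where 5.37% of all genes were called higher and 5.41% lower. The call was lost without mated library 1 or 4 or unmated library 1 or 2, at adjusted p-values of up to 0.0843. DnaJ-1 was at 104, 101, 86.1 and 125 CPM when mated and at 27.2, 38.5, 47.5 and 46.3 CPM when unmated, also without overlap. Its log2 change of 1.38 did not pass the test (SE 0.56, adjusted p = 0.132), but it did when the fit held only the compared groups (SE 0.19, adjusted p = 0.00635).

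The Hsp70 copies were scarce in these libraries. Summed, they were at 2.07, 8.90, 0.927 and 2.18 CPM when mated and at 2.22, 6.80, 0.538 and 3.36 CPM when unmated. Library 2 was the highest and library 3 the lowest in both states, and the log2 change was 0.17 (SE 0.66, adjusted p = 0.903). Hsp68 had its highest value in library 2 of both states as well, at 19.8 CPM mated and 12.6 CPM unmated, against 4.79 to 9.51 CPM and 3.27 to 4.03 CPM in the other libraries. The median log2 change of the 9 genes was 0.42, against -0.00255 over all genes tested.

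The interaction of mating with the EcR RNAi label was not called for any of these genes. By edgeR 0% of 9036 genes were called, with 727 at an unadjusted p under 0.05, and DESeq2 called 1 gene, with 744 at an unadjusted p under 0.05. None of the 9 chaperone genes was among those at an unadjusted p under 0.05 by either tool. For Hsp83 the mating responses differed by 0.66 (SE 0.41, adjusted p = 0.68) and for DnaJ-1 by 1.27 (SE 0.77, adjusted p = 0.678), so the call of Hsp83 in 1 genotype does not show that the genotypes differed. The median over the 9 genes was 1.27, against -0.00228 over all genes.

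Between genotypes, Hsp70Bb stood apart from every other gene of the group. It was at 77.9, 60.5, 103 and 51.5 CPM in unmated Actin controls and at 1.31, 3.10, 0.314 and 0.983 CPM in the unmated libraries labelled EcR RNAi. In mated flies it was at 90.7, 73.2, 55.3 and 89.4 CPM in controls and at 0.744, 3.53, 0.488 and 0.579 CPM in the libraries labelled EcR RNAi. Every control library was far above every library of the other genotype, and the ratio of control to EcR RNAi means was 51.2 in unmated and 57.8 in mated flies. The log2 changes of EcR RNAi over control were -5.69 (SE 0.59, adjusted p = 5.06e-05) and -5.81 (SE 0.59, adjusted p = 4.61e-05). With 1 library left out they lay between -6.36 and -5.36 and between -6.96 and -5.55, and both calls were kept.

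No other gene among the 9 tested was called between genotypes. In unmated flies 7.95% of all genes were called higher and 7.24% lower in the libraries labelled EcR RNAi, and in mated flies 3.53% and 4.99%. Hsp70Ba had a log2 change of -2.58 in unmated flies (SE 1.16, adjusted p = 0.153) and of -0.52 in mated flies (SE 1.10, adjusted p = 0.859). It was at 0.260, 0.155, 2.31 and 4.81 CPM in unmated controls against 0 to 0.689 CPM in the unmated libraries labelled EcR RNAi. Hsp83 differed by -0.58 (SE 0.29, adjusted p = 0.196) and DnaJ-1 by -1.01 (SE 0.55, adjusted p = 0.24) in unmated flies, and by 0.07 and 0.26 in mated flies. Hsp68 differed by -1.26 (SE 0.85, adjusted p = 0.351) and 0.20 (SE 0.84, adjusted p = 0.933), and stv by 0.12 and 0.20. The median of the 9 genes was -1.26 in unmated and 0.07 in mated flies, against -0.00556 and -0.00287 over all genes.

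The sum of the 6 copies followed Hsp70Bb, with log2 changes of -4.63 (SE 0.65, adjusted p = 0.000569) in unmated and -4.47 (SE 0.64, adjusted p = 0.00122) in mated flies. Without Hsp70Bb, a choice made after the counts were seen, the other 5 copies summed to 0.706, 0.893, 7.36 and 13.1 CPM in unmated controls and to 0.911, 3.69, 0.224 and 2.38 CPM in the unmated libraries labelled EcR RNAi. These groups overlapped, and the log2 change was -1.63 (SE 0.99, adjusted p = 0.29). In mated flies it was -0.14 (SE 0.98, adjusted p = 0.961).

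**Figure D4:**
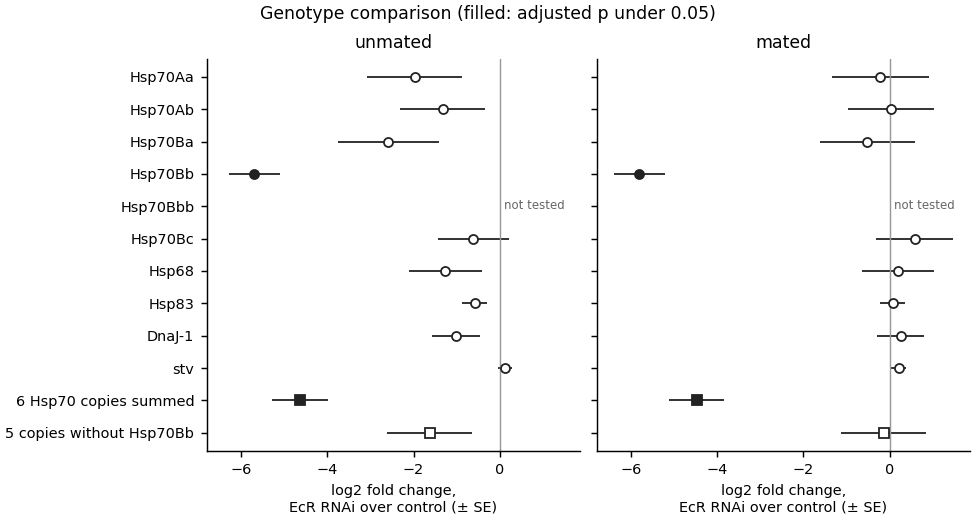
Log2 fold change of the libraries labelled EcR RNAi over Actin controls (points, bars of 1 SE) in unmated and mated flies, with squares for the 6 copies summed and for the sum without Hsp70Bb, filled where the adjusted p was under 0.05. Hsp70Bb lay at -5.69 and -5.81, and the sum without it at -1.63 and -0.14 with no call.

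The split of counts among the copies set the Actin controls apart from all other material. Hsp70Bb held 96.6 ± 2.37% of the counts of the 6 copies in mated Actin controls and 92.7 ± 9.03% in unmated ones (SD, n = 4). Its share was 38.7 ± 10.8% and 48.1 ± 13.98% in the libraries labelled EcR RNAi, in whole guts 50.8 ± 13.4% and 42.8 ± 9.89%, and in progenitors 45.9 ± 0.495% and 41.8 ± 1.29%. No library labelled EcR RNAi overlapped with a control library. An exact two-sided permutation test gave p = 0.0286 in each mating state, the smallest p that 4 against 4 libraries allow, and 0.0571 after adjustment over 6 comparisons, a test added after the counts had been seen. The 6 copies together had 1344 to 3145 counts in a control library and 12 to 222 in a library labelled EcR RNAi, so shares in the latter are imprecise.

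Among Actin controls, unmated library 4 had the lowest Hsp70Bb share, at 79.7%. That library had the lowest Hsp70Bb level of its group, 51.5 CPM, and the highest level of 7 of the 10 genes, Hsp70Aa, Hsp70Ab, Hsp70Ba, Hsp70Bc, Hsp68, Hsp83 and DnaJ-1. Levels of Hsp70Bb thus did not follow the other copies among control libraries. Fly transgenes often carry promoter or leader sequence of an Hsp70 gene. The genotypes named above add an EcR RNAi transgene to Actin-Gal4 only in the flies where Hsp70Bb was low. Mean Hsp70Bb levels there were 1.43 CPM unmated and 1.33 CPM mated, against 73.2 and 77.2 CPM in controls. Any control transgene other than Actin-Gal4 is unknown here. Reads from Hsp70 sequence in a transgene and reads from the Hsp70Bb locus cannot be told apart in gene counts. The part of transgenes in the Hsp70Bb difference was not tested.

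**Figure D5:**
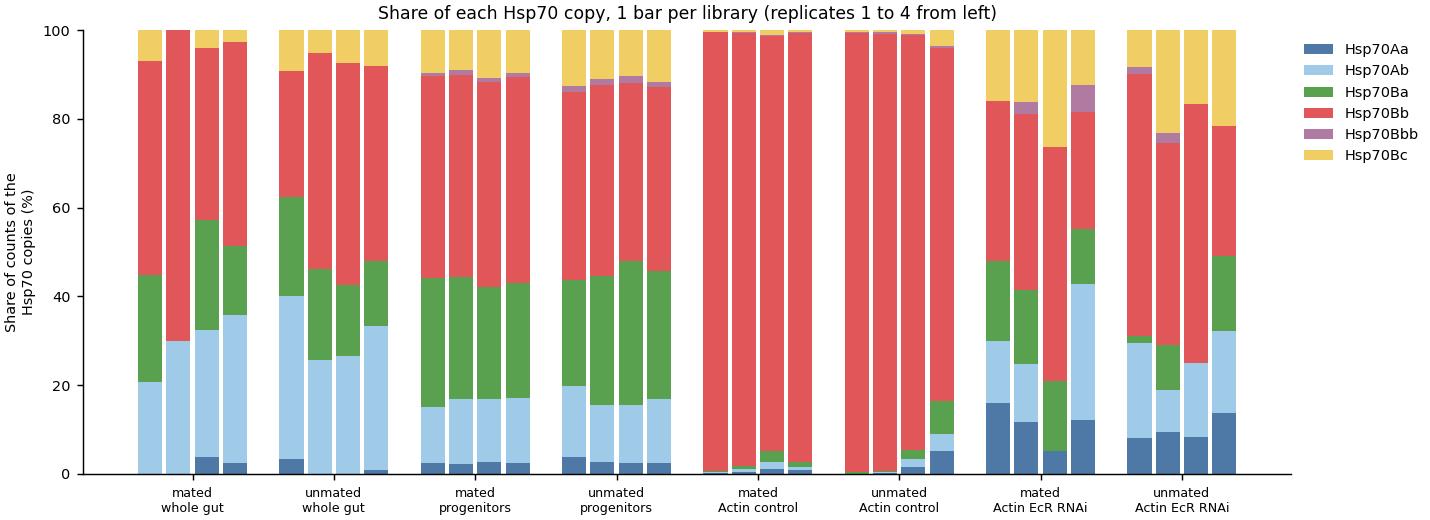
Stacked bars give the share of each Hsp70 copy in the summed counts of the copies, 1 bar per library. Hsp70Bb took 79.7% to 99.1% in unmated and 93.3% to 98.9% in mated Actin controls, and its mean share in the other groups was 38.7% to 50.8%.

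In progenitors, where the copies had 13135 to 96265 counts per library, the shares were tight. Hsp70Ba held 27.0 ± 1.69% in mated and 28.6 ± 3.54% in unmated cells, Hsp70Ab 13.9 ± 0.878% and 14.02 ± 1.41%, and Hsp70Bc 9.65 ± 0.739% and 11.4 ± 0.907%. Hsp70Aa held 2.52 ± 0.174% and 2.89 ± 0.690%, and Hsp70Bbb 0.978 ± 0.180% and 1.35 ± 0.133%. The Hsp70Bb share was higher in mated than in unmated cells in every library, by 4.16 percentage points on average (exact two-sided permutation p = 0.0286, 0.0571 adjusted over 6 comparisons). The shift in the split was small beside the fall of all copies.

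Other chaperone genes of the pathway were followed by fixed lists. Of 12 small heat shock proteins, which hold unfolded proteins for refolding, 7 were tested in progenitors and 6 were called lower with mating, against 21.1% of all genes. Their median log2 change was -3.46, and Hsp67Bc, for instance, went from 201.5 ± 96.4 CPM unmated to 23.2 ± 7.12 CPM mated (log2 change -3.11, SE 0.40, adjusted p = 0.00266). In whole guts 1 of 5 was called lower (2.03% of all genes), l(2)efl, from 133 ± 23.3 to 42.6 ± 3.15 CPM (log2 change -1.64, SE 0.13, adjusted p = 0.000182). This gene rose in the libraries labelled EcR RNAi, from 44.2 ± 7.36 to 84.6 ± 25.8 CPM (log2 change 0.93, SE 0.23, adjusted p = 0.0211), and was the only call among 6, where 5.37% of all genes were called higher.

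Of the constitutive Hsp70 cognates and Hsp110, 5 of 5 tested were called lower in progenitors, against 21.1% of all genes, with a median log2 change of -0.85. Hsc70-4, Hsc70-3 and Hsc70Cb had the smallest adjusted p-values of these. Among those 3, Hsc70-3, the cognate of the endoplasmic reticulum known as BiP, fell most (log2 change -1.86, SE 0.29, adjusted p = 0.00383). Hsc70-4, the main cytosolic cognate, fell from 10115 ± 1195.7 to 6873 ± 155 CPM (log2 change -0.56, SE 0.09, adjusted p = 0.00344). Hsc70Cb, the fly Hsp110, fell from 895 ± 199 to 498 ± 61.6 CPM (log2 change -0.85, SE 0.16, adjusted p = 0.0059). In the libraries labelled EcR RNAi 4 of 6 were called higher with mating, against 5.37% of all genes, among them Hsc70-5, the mitochondrial cognate, with a log2 change of 0.39 (SE 0.09, adjusted p = 0.0119). None of 6 was called in whole guts, where 2.03% of all genes were called lower and 2.23% higher. In Actin controls 1 of 6 was called higher, against 2.95% of all genes.

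In progenitors 4 of 9 further J-domain genes were called lower and none higher, against 21.1% and 19.1% of all genes, and CG7130 fell from 55.1 ± 31.0 to 7.58 ± 0.912 CPM (log2 change -2.86, SE 0.43, adjusted p = 0.0036). Of 13 cochaperones and relatives of the Hsp90 and Hsp70 systems, 5 were called lower and 2 higher there, beside the same 21.1% and 19.1%. Their median log2 change was 0.05, against 0.0194 over all genes. The myosin chaperone gene unc-45 was among the lower ones, at 82.7 ± 26.4 CPM unmated and 38.0 ± 3.15 CPM mated (log2 change -1.12, SE 0.21, adjusted p = 0.00659). None of these J-domain or cochaperone genes was called with mating in whole guts, where 2.03% of all genes were called lower and 2.23% higher.

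Between genotypes, 1 of the 13 cochaperone genes was called higher and 2 lower in unmated flies (7.95% and 7.24% of all genes), and 2 higher and 1 lower in mated flies (3.53% and 4.99%). Gp93, the Hsp90 of the endoplasmic reticulum, was higher in the libraries labelled EcR RNAi, at 1433 ± 309 against 764 ± 46.4 CPM in unmated flies (log2 change 0.91, SE 0.12, adjusted p = 0.000241) and at 1879.5 ± 153 against 989 ± 86.7 CPM in mated flies (log2 change 0.93, SE 0.12, adjusted p = 0.000341). Of the 6 Hsp70 cognates and Hsp110, 1 was called higher in each state, Hsc70-3, with log2 changes of 0.68 (SE 0.16, adjusted p = 0.0091) and 0.81 (SE 0.16, adjusted p = 0.00496). HIP, an Hsp70-interacting cochaperone gene, was lower, by -0.49 (SE 0.07, adjusted p = 0.000295) and -0.36 (SE 0.07, adjusted p = 0.00444), while the related HIP-R was higher in mated flies, with a log2 change of 0.49 (SE 0.08, adjusted p = 0.00212).

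Chaperonins, which fold proteins inside a closed barrel, were followed with the mitochondrial chaperones listed beside them. In progenitors 1 of 3 tested, Hsp60A, was called lower (21.1% of all genes), with a log2 change of -0.27 (SE 0.08, adjusted p = 0.0252). In the libraries labelled EcR RNAi 3 of 3 were called higher with mating (5.37% of all genes), led by CG11267, which went from 37.2 ± 2.84 to 52.0 ± 0.574 CPM (log2 change 0.48, SE 0.10, adjusted p = 0.00893).

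The gene of the regulator was also called lower in mated progenitors, as were 21.1% of all genes. Its part in the chaperone result was not tested. Hsf was at 152 ± 32.4 CPM unmated and 92.2 ± 5.86 CPM mated (log2 change -0.72, SE 0.14, adjusted p = 0.00702). The heat-inducible nuclear RNA lncRNA:Hsromega was at 2081 ± 974 CPM unmated and 298 ± 91.6 CPM mated (log2 change -2.80, SE 0.42, adjusted p = 0.00345). For both, the difference from the whole gut response passed its own test, as it did for 21.3% of all genes in either direction. That difference was -0.84 (SE 0.18, adjusted p = 0.00697) for Hsf and -2.74 (SE 0.45, adjusted p = 0.00114) for lncRNA:Hsromega. In whole guts, where 2.03% of all genes were called lower and 2.23% higher, neither was called. Hsf was there at 45.2 ± 6.22 CPM unmated and 50.4 ± 1.9997 CPM mated, and lncRNA:Hsromega at 113 ± 17.2 and 111 ± 8.60 CPM.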

How the data were processed

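RNA-seq gene counts were deposited as 3 tables used here (whole gut, sorted progenitors, Actin groups), covering 32 of 47 samples in 8 groups. The authors made these counts with STAR and HTSeq on BDGP6/dm6 and used DESeq2, per the submitters' processing notes. Libraries were poly(A)-selected and directional, per the labels' protocols. The sources used here do not state tool versions, the strand setting or how multi-mapping reads were handled. The 15 Myo1A samples were not analysed, since the table that carries their name repeats the 8 whole gut columns value for value, and 16 further columns of per-sample values were not used.

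Transposable element rows were left out (0.0452%, 0.137% and 0.0651% of counts). The deposited counts were filtered with edgeR's filterByExpr (minimum count 10, total 15), TMM-scaled and tested with edgeR's quasi-likelihood F test, adjusting by Benjamini-Hochberg across each table. A call is an adjusted p under 0.05, and the SE is the absolute log2 change over the square root of F. Whole gut and progenitor mating were each fitted on their own table, and the 4 Actin groups together. Tests of response differences between tables were fitted on joined tables. The scripts were tested on simulated data. Tools were R 4.3.3, edgeR 4.0.16, limma 3.58.1, DESeq2 1.42.0, Python 3.11.15, NumPy 2.4.6, SciPy 1.17.1 and pandas 2.3.3.

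The genes and lists were chosen with earlier results of these data known. All 10 genes were named in the comparisons, as were, from each related list and comparison, up to 3 called genes with the smallest adjusted p (a selection is printed) and the 5 genes most like the summed copies. The deviations of same-numbered mated and unmated Actin control libraries correlated at r of 0.136 to 0.301. Mated control libraries 2, 3 and 4 nevertheless matched an unmated library of another number best. The replicate block changed no call there. No 2 libraries agreed within sampling noise. Alternatives were DESeq2, scaling by its size factors or by upper quartiles, dropping the filter or raising it to a minimum count of 50, a replicate block, only the compared groups, leaving out libraries, the copies as 1 sum and, chosen after seeing the data, the sum without Hsp70Bb.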

Additional observations from a re-analysis of the deposited data

Results flagged for a closer look

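In 12 of 86 sets of 4 libraries for the genes and their sum, 1 library lay further from the others than Dixon's 95% critical value. By chance about 1 in 20 sets of normally distributed values would pass it. The CPM were not log-transformed and some sets rest on few counts, so 12 of 86 cannot be set against that rate. The sets share libraries and are not independent.

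In unmated whole guts library 1 stood above the others, with Hsp70Aa at 0.660 CPM (others up to 0.0470 CPM), Hsp70Ba at 4.48 CPM (others 0.580 to 0.882 CPM), DnaJ-1 at 213 CPM (others 52.5 to 73.6 CPM) and the summed Hsp70 copies at 20.1 CPM (others 2.83 to 5.78 CPM). In mated whole guts library 3 stood above the others, with Hsp68 at 14.2 CPM (others 1.64 to 3.31 CPM), Hsp83 at 655 CPM (others 99.99 to 187 CPM) and DnaJ-1 at 80.3 CPM (others up to 22.9 CPM).

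In the mated libraries labelled EcR RNAi, library 2 was apart for Hsp70Ba at 1.48 CPM (others 0.146 to 0.372 CPM), Hsp70Bb at 3.53 CPM (others 0.488 to 0.744 CPM) and Hsp70Bc at 1.44 CPM (others 0.244 to 0.331 CPM). The summed copies in that library were at 8.90 CPM, against 0.927 to 2.18 CPM. In the unmated libraries labelled EcR RNAi, Hsp68 was at 12.6 CPM in library 2 and at 3.27 to 4.03 CPM in the others.

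The mating response of stv differed between progenitors and whole guts by -1.93 on the log2 scale, by a test of the difference itself (edgeR, adjusted p = 0.0168).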

How the results depend on the processing

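No alternative reversed a direction of a called result. Shares of all genes called under each alternative are not given, so the counts of calls below stand without that background. In whole guts, DESeq2 called 3 genes lower in place of 1, adding Hsp70Ab and Hsp70Bb, and gave the summed copies a log2 change of -2.03 (adjusted p = 0.00684). Leaving out 1 library gave 1 to 2 calls there, with 2 without mated library 3 or unmated library 2, and log2 changes of the sum between -2.41 and -1.16. In progenitors 10 genes were called lower under every alternative run. In the libraries labelled EcR RNAi, fitting only the compared groups gave 2 genes higher with mating, and leaving out 1 library gave 0 to 1. The genotype difference of the summed copies was -1.63 in unmated and -0.14 in mated flies without Hsp70Bb, and neither passed the test. Where the Actin control response was set against that of whole guts, genes called higher numbered 2 by DESeq2, 1 with upper quartile scaling, 1 with the stricter filter, 1 with the replicate block and 0 to 3 with 1 library left out. For the summed copies that difference was 2.03 by DESeq2 (adjusted p = 0.049) and 1.19 to 2.43 with 1 library left out. The cause of these shifts was not tested.

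With the replicate block the summed copies had log2 changes of -1.69 in whole guts (adjusted p = 0.343) and -2.30 in progenitors (adjusted p = 0.00365). Same-numbered libraries deviated with r of -0.109 to 0.308 in whole guts and -0.0745 to 0.347 in progenitors, so the numbers gave no clear pairing there. In the Actin control minus whole gut difference, stv was called under the block (0.67, adjusted p = 0.0303), and no count of calls changed elsewhere. Depth limits the whole gut and EcR RNAi values of the Hsp70 copies, which rest on 12 to 274 counts a library.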

Other observations

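Outside the 10 chaperone genes, those whose levels were most like the summed Hsp70 copies were CG7194, babos, Sulf1, Pa1 and CG15673. Likeness was the lowest of 3 Pearson correlations of log2(CPM + 1), over 8 whole gut, 8 progenitor and 16 Actin libraries, among 7375 genes. For CG7194 the 3 values were 0.78, 0.95 and 0.96, and for babos 0.93, 0.88 and 0.77. The libraries differ in mating state and genotype, so each value includes those differences.

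Over the Actin libraries the sum correlated at 0.99 with Hsp70Bb, which is itself part of the sum. There it correlated at 0.21 with Hsp68, 0.17 with Hsp83, 0.07 with DnaJ-1 and -0.19 with stv. Over the progenitor libraries the same genes correlated with the sum at 0.97 to 1.00. When the sum left out Hsp70Bb, a choice made after the data were seen, its lowest correlation with Hsp68 was 0.86, over the Actin libraries. With Hsp70Bb that sum correlated at 0.36 over the Actin, 0.95 over the whole gut and 0.998 over the progenitor libraries. Outside the 10 genes the most alike were then Gr89a, Hsp23, HEATR2, CG17486 and AstC, with lowest correlations of 0.65 to 0.73.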
